A study of Saccharomyces cerevisiae with 24 samples.

Results

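The 8 loci described here are open reading frames of budding yeast that carry a systematic name only: YIR042C, YLR179C, YPL088W, YDR133C, YJR015W, YBR197C, YHR033W and YCL021W-A. They are 8 of the 4442 gene pairs measured, and they were picked because 1 strain's allele had far more reads than the other in these same libraries. The size of the imbalance is therefore how they were found, and it is given as a description with no test. There were 24 RNA libraries, 12 from a hybrid and 12 from a co-culture. The hybrid, strain WL201, is a diploid made by crossing the laboratory strain BY4741 with the vineyard-derived strain RM11-1alpha, so that both alleles share 1 nucleus. In the co-culture, BY4741 haploids and RM11-1a haploids, all of mating type a, shared a flask, so that each allele worked in its own strain. The RM parent of the hybrid and the RM haploid of the co-culture are thus of opposite mating type. Per the labels, 4 cultures of each kind, called technical replicates, grew from an optical density of 0.1 to 1 with shaking at 250 rpm and 30 °C.

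Inside the hybrid both alleles meet the same regulatory proteins, so a difference between them there is tied to the allele's own sequence or to the assignment of its reads. A difference that appears or grows only between the haploid strains depends on what else differs between those cells. Comparing the allelic ratio in hybrid and co-culture therefore asks whether the imbalance is the same in both. Of the 8 loci, 7 had an entry in the RefSeq annotation of the S288C genome (R64). YLR179C encodes a protein similar to Tfs1, and YPL088W encodes a putative aryl alcohol dehydrogenase of the aldo-keto reductase superfamily. The annotation records for both that transcription is activated by Yrm1 and Yrr1, paralogous zinc cluster activators of multidrug resistance genes. YJR015W encodes a predicted membrane transporter that localizes to the endoplasmic reticulum and is a paralog of SNG1. YBR197C encodes a protein of the cytoplasm and nucleus with the paralog YPL077C. YHR033W encodes a putative glutamate 5-kinase with the paralog PRO1, the gene for the enzyme that begins proline synthesis. YIR042C encodes an uncharacterised protein, and YCL021W-A a short protein that localizes to the vacuole. YDR133C had no entry, and no role is given to it. Whether its reads come from a transcript of its own or from that of another gene was not tested.

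The upstream sequences of YPL088W and YLR179C are shown because these are the loci with named activators, and because the allelic ratio changed between hybrid and co-culture in YPL088W and did not pass that test in YLR179C. Each run covers the 300 bases from 350 to 51 bases before the start codon in R64, read 5′ to 3′ on the gene's own strand, with capitals marking a match to TCCGTGGA on either strand.
YPL088W (chrXVI:381615-381914, plus strand): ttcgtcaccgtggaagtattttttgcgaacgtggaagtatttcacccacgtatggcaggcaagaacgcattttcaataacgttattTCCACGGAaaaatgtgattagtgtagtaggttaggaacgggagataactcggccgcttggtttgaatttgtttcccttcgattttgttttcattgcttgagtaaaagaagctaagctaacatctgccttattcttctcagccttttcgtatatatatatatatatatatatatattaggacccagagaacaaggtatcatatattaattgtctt
YLR179C (chrXII:514764-515063, minus strand): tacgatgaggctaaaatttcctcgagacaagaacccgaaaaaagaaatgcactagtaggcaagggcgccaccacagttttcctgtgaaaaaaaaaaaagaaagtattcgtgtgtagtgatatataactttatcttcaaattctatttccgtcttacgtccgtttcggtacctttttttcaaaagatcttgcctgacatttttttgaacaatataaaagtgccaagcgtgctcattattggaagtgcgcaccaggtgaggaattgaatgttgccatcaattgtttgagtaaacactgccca
TCCGTGGA is a drug response element variant, and the capitals read TCCACGGA because the match in YPL088W lies on the opposite strand, 264 to 257 bases before the start codon. Among the 6001 windows of the same length before protein-coding genes, 0.65% held this motif. The palindromic variant TCCGCGGA was in 0.333% of windows, and the pheromone response element TGAAACA was in 7.58%. Apart from the YPL088W match, none of the 3 motifs was found on either strand in the windows of the 7 annotated loci. Only exact matches were sought, and whether Yrr1 or Yrm1 binds these motifs was not tested. A match, or the lack of one, therefore does not show whether a site for these activators is present. The reference is the BY lineage, so these letters do not show what the RM allele carries.

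The libraries held 165503 to 232428 assigned reads in the hybrid, against 199838 to 227175 in the co-culture. Of all reads, RM took 49.5 to 49.9% per hybrid library and 54.6 to 55.0% per co-culture library, where the numbers of BY and RM cells also set it. Libraries that differed by no more than sampling noise were summed, which left 8 summed hybrid libraries and 4 summed co-culture libraries. The 8 outnumber the 4 cultures of the hybrid, so p-values rest on a spread between libraries that may be technical. Markers matched the labels. STE2, the alpha-pheromone receptor of a cells, had 71 BY and 70 RM reads in the hybrid against 6579 and 11566 in the co-culture. STE3, the receptor of alpha cells, had 0 BY and 3 RM reads against 2 and 1. MET17, a methionine synthesis gene that BY4741 lacks, had 0 BY reads throughout. LYS2, a lysine synthesis gene, had 695 BY and 2 RM reads in the hybrid against 586 and 590 in the co-culture, so the RM allele's reads at this gene were nearly absent from the hybrid.

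In 4 loci the RM allele had more reads. YIR042C had 1 to 14 BY reads and 48 to 77 RM reads in the hybrid libraries, with medians of 6.5 and 66. In the co-culture libraries it had 4 to 8 BY reads and 33 to 63 RM reads, with medians of 5 and 49.5. The RM allele was higher in all 12 libraries of each group, and its share ran from 78.8 to 98.5% (median 91.2%) in the hybrid, against 80.5 to 94.0% (median 91.0%) in the co-culture. The 2 groups overlapped over most of their range.

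YLR179C, the Tfs1-like locus, had 36 to 61 BY reads and 146 to 237 RM reads per hybrid library, with medians of 50 and 176.5. Per co-culture library it had 21 to 45 BY reads and 123 to 164 RM reads, with medians of 33 and 155. The RM share was 74.9 to 82.1% (median 78.5%) in the hybrid, against 77.8 to 86.3% (median 81.1%) in the co-culture. RM was higher in every one of the 24 libraries, and the ranges of the groups overlapped. Once reads were scaled for the unequal strain totals, the share was 78.7% ± 2.45 (SD, n = 8 summed libraries) in the hybrid and 78.7% ± 1.24 (SD, n = 4) in the co-culture.

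YPL088W, the putative aryl alcohol dehydrogenase gene, had 8 to 18 BY reads and 26 to 45 RM reads per hybrid library, with medians of 10.5 and 37.5. Per co-culture library it had 2 to 10 BY reads and 34 to 54 RM reads, with medians of 5.5 and 43. The RM share was 61.9 to 83.0% (median 77.5%) in the hybrid, against 81.1 to 95.2% (median 88.9%) in the co-culture. Single libraries overlapped only at the edge of both ranges, and the summed libraries did not, with 71.7 to 82.6% in the 8 of the hybrid and 86.5 to 95.2% in the 4 of the co-culture.

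YDR133C had 38 to 74 BY reads and 134 to 233 RM reads per hybrid library, with medians of 65 and 185.5. Per co-culture library it had 107 to 139 BY reads and 242 to 320 RM reads, with medians of 124.5 and 277.5, so that both alleles had more reads there, the BY allele by the larger factor. Its RM share was 68.6 to 79.4% (median 75.3%) in the hybrid, against 65.4 to 73.7% (median 69.3%) in the co-culture. The summed libraries overlapped before scaling, at 68.6 to 79.4% against 65.4 to 71.2%. After scaling the share was 75.4% ± 3.26 (SD, n = 8) against 65.0% ± 2.59 (SD, n = 4), with no overlap between the summed libraries of the 2 groups.

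In the other 4 loci the BY allele had more reads. YJR015W, the SNG1 paralog, had 19 to 38 BY reads and 2 to 9 RM reads per hybrid library, with medians of 30.5 and 5. Per co-culture library it had 32 to 51 BY reads and 3 to 13 RM reads, with medians of 42 and 7. BY was higher in all 24 libraries, and the RM share was 5.41 to 32.1% (median 14.3%) in the hybrid, against 6.67 to 23.6% (median 15.2%) in the co-culture. The hybrid range enclosed the co-culture range.

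YBR197C had 12 to 24 BY reads and 3 to 8 RM reads per hybrid library, with medians of 16 and 5. Per co-culture library it had 7 to 16 BY reads and 1 to 9 RM reads, with medians of 11 and 4. The RM share was 13.0 to 33.3% (median 26.3%) in the hybrid, against 11.1 to 38.9% (median 29.3%) in the co-culture, again with BY higher in all 24 libraries and with overlapping groups.

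YHR033W and YCL021W-A had too few reads for the allelic fit, which asked for 100 reads over both alleles in each group. YHR033W, the PRO1 paralog, had 43 BY and 2 RM reads over the 12 hybrid libraries, and 62 BY and 13 RM reads over the 12 co-culture libraries. Its RM reads were 0 in 10 of the hybrid and 5 of the co-culture libraries. The RM share was 4.44% (exact Clopper-Pearson 95% interval 0.543 to 15.1) in the hybrid, against 17.3% (9.57 to 27.8) in the co-culture, and these intervals overlapped. Intervals of this kind cover counting error only, and their overlap, here and for YCL021W-A, does not show that the groups are the same.

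YCL021W-A had 46 BY and 4 RM reads over the hybrid libraries, with 0 to 7 BY reads in each. Over the co-culture libraries it had 260 BY and 2 RM reads, with 18 to 28 BY reads in each, so that the BY reads of the 2 groups did not overlap. The BY-over-RM ratio was 11.5 (exact interval 4.20 to 44.0) in the hybrid, against 130 (35.6 to 1079) in the co-culture, and the intervals overlapped. RM reads were 0 in 8 of 12 hybrid and 10 of 12 co-culture libraries, so the ratio rests on very few RM reads in both. In R64, the BY-lineage reference, this locus lies among retrotransposon sequence, with 6 long terminal repeats and 1 whole Ty element within 2000 bases. None of the other 6 annotated loci had such an element in that distance.

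**Figure D1:**
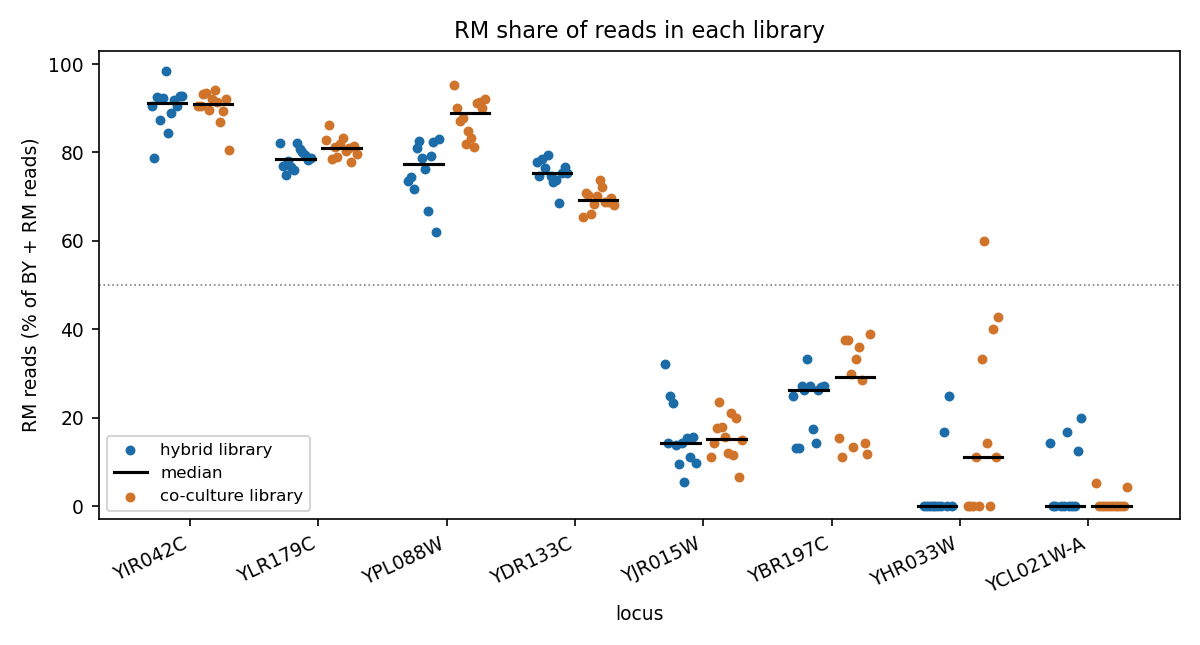
RM reads as a percentage of BY plus RM reads for each of the 8 loci, with 1 point per library, hybrid in blue and co-culture in orange, and a black bar at the median of up to 12 libraries. YPL088W sits higher in the co-culture (median 88.9% against 77.5%) and YDR133C lower (69.3% against 75.3%), while the other loci overlap broadly.

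The question whether the imbalance was the same in hybrid and co-culture was put to a joint edgeR fit of 2661 gene pairs, in which each allele column is scaled so that the typical pair has a ratio of 1. Of the 8 loci, 6 had enough reads. Their log2 RM-over-BY ratio in the hybrid was 3.17 (SE 0.17) for YIR042C, 1.88 (SE 0.07) for YLR179C, 1.66 (SE 0.14) for YPL088W and 1.61 (SE 0.06) for YDR133C. It was -2.46 (SE 0.20) for YJR015W and -1.74 (SE 0.21) for YBR197C. In the co-culture the same 6 ratios were 3.03 (SE 0.20), 1.86 (SE 0.08), 2.64 (SE 0.18), 0.95 (SE 0.05), -2.64 (SE 0.17) and -1.65 (SE 0.24), in that order of loci. All 6 kept their direction, 4 with RM higher and 2 with BY higher. Over all pairs, 20.6% passed in the hybrid, 10.6% for RM excess and 9.96% for BY excess, and 40.2% in the co-culture, 20.5% for RM and 19.7% for BY, and the median absolute log2 ratio was 0.17 and 0.26.

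**Figure D2:**
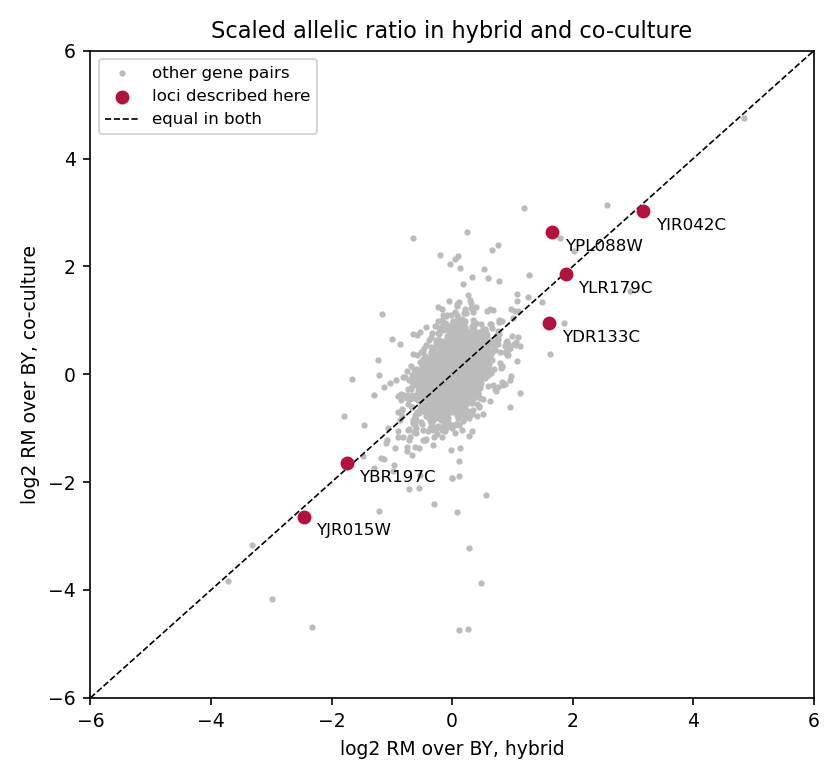
Scaled log2 RM-over-BY ratio of each gene pair in the hybrid (horizontal) and the co-culture (vertical), with the 6 loci that had enough reads in red, other pairs in grey, and the dashed line where both ratios are equal; 2 pairs lie outside the axes. YIR042C, YLR179C, YJR015W and YBR197C lie close to the line, YPL088W lies above it (1.66 and 2.64) and YDR133C below it (1.61 and 0.95).

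The ratio differed between the groups in 2 of the 6 loci, in opposite directions. In YPL088W the RM excess was larger in the co-culture, by 0.97 on the log2 scale (SE 0.23, edgeR adjusted p = 0.000263), a 6.22-fold RM excess against 3.17-fold in the hybrid. In YDR133C it was smaller in the co-culture, by a log2 difference of -0.66 (SE 0.08, adjusted p = 4.8e-15), a 1.93-fold excess against 3.05-fold. Over all 2661 pairs 20.9% passed this test, 11.2% above 0 and 9.62% below 0, against 2 of these 6 loci, 1 each way. Both loci were picked on ratios from the same libraries, so the tests are not independent of that choice.

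The other 4 did not pass, and their intervals show how large a difference these libraries could miss. The co-culture minus hybrid difference was -0.03 in YLR179C (95% interval -0.23 to 0.18, adjusted p = 0.907) and -0.14 in YIR042C (-0.65 to 0.36, adjusted p = 0.764). It was -0.18 in YJR015W (-0.68 to 0.33, adjusted p = 0.704) and 0.09 in YBR197C (-0.53 to 0.71, adjusted p = 0.89). YLR179C has the most reads of these and the narrowest interval. Without the read minimum, the fitted difference was 1.62 (SE 1.23) in YHR033W and -3.44 (SE 1.28) in YCL021W-A, where it rests on 4 and 2 RM reads. Both loci were under the minimum and were picked for their ratio, so these values are a description with no test.

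The level summed over both alleles was not used to pick the loci, and 6 of the loci met the minimum of 10 reads per library on average in the hybrid as well as in the co-culture. Of these 6 loci, 5 differed between the groups, against 60.4% of all 2793 genes tested, 29.5% higher and 30.9% lower in the hybrid. YIR042C, YLR179C and YBR197C were higher in the hybrid, YDR133C and YJR015W were lower, and YPL088W did not pass. YCL021W-A met the minimum through the co-culture alone and is left out of this count. YHR033W, under the minimum in both groups, stood at 17.7 ± 10.3 CPM in the hybrid (n = 8) and at 32.5 ± 3.04 CPM in the co-culture (n = 4), and without the minimum it was lower in the hybrid (log2 -0.82, SE 0.29, edgeR adjusted p = 0.0114). Levels are given as counts per scaled library size (CPM, the usual per-megaread unit). For the summed level that size counts the reads of both alleles, and for a single allele only the reads of that allele. The BY and RM levels given below therefore do not add up to the summed level. In bulk RNA, fewer cells with a transcript and less transcript per cell cannot be told apart. The mix of BY and RM cells also enters the summed level of the co-culture, and more so in loci with a strong imbalance. How much of the differences in summed level comes from that mix was not tested.

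The level of YCL021W-A was 0 to 34.9 CPM in the hybrid, with a mean of 19.6 ± 11.6 (SD, n = 8), and 90.5 to 124 CPM in the co-culture, with a mean of 108 ± 14.1 (SD, n = 4). The groups did not overlap, with 50 reads in all in the hybrid against 262, a fitted log2 difference of -2.46 (SE 0.24). Since the locus was admitted through its high group, this difference is a description with no test. In reads, it lay in the BY allele, with 46 against 260, a depth-corrected co-culture-over-hybrid ratio of 6.24 (exact counting interval 4.55 to 8.74). The RM allele had 4 and 2 reads, a ratio of 0.45 (0.041 to 3.14). Whether the retrotransposon sequence around the locus has a part in this was not tested.

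YDR133C stood at 1145 ± 141 CPM (SD, n = 8 hybrid) and 1998 ± 165 CPM (SD, n = 4 co-culture), with 845 to 1270 against 1762 to 2140 CPM and no overlap. It was 1.74-fold lower in the hybrid (log2 -0.80, SE 0.06, edgeR adjusted p = 1.4e-20). Both alleles fell, the BY allele by 1.23 on the log2 scale (SE 0.08, adjusted p = 1.2e-28) and the RM allele by 0.57 (SE 0.06, adjusted p = 6.8e-15). The reads of each allele entered the ratios on which the loci were picked. Tests of single alleles, here and below, are therefore not independent of that choice. The BY allele's mean of 572 ± 106 CPM in the hybrid compared with 1363 ± 78.4 CPM in the BY haploid, and the RM allele's 1744 ± 223 with 2543 ± 260 in the RM haploid.

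The arrangement in YPL088W was different. Its summed level was 230 ± 18.2 CPM in hybrid libraries and 242 ± 33.7 CPM in co-culture libraries, and the difference did not pass (log2 -0.11, SE 0.09, edgeR adjusted p = 0.282). Under that summed level the BY allele rose in the hybrid by 0.77 (SE 0.22, adjusted p = 0.0015), from 54.4 ± 25.4 CPM in the BY haploid (n = 4) to 108 ± 23.4 CPM (n = 8). The RM allele stood at 403 ± 45.7 CPM in the RM haploid and 357 ± 23.6 CPM in the hybrid, a change of -0.22 (SE 0.10) that did not pass (adjusted p = 0.0618). It passed without co-culture summed library 1 (-0.24, adjusted p = 0.0435) or 2 (-0.29, adjusted p = 0.0301), without the read minimum (-0.25, adjusted p = 0.0399) and with removal of the trend that the change in level showed on the A share of the coding sequence over all genes (-0.24, adjusted p = 0.0398). Without TMM scaling it was -0.078 (adjusted p = 0.532). With that trend removed, p-values here and below come from a normal distribution of the change over its SE, not from the edgeR F test. They are therefore not strictly comparable with the others.

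**Figure D3:**
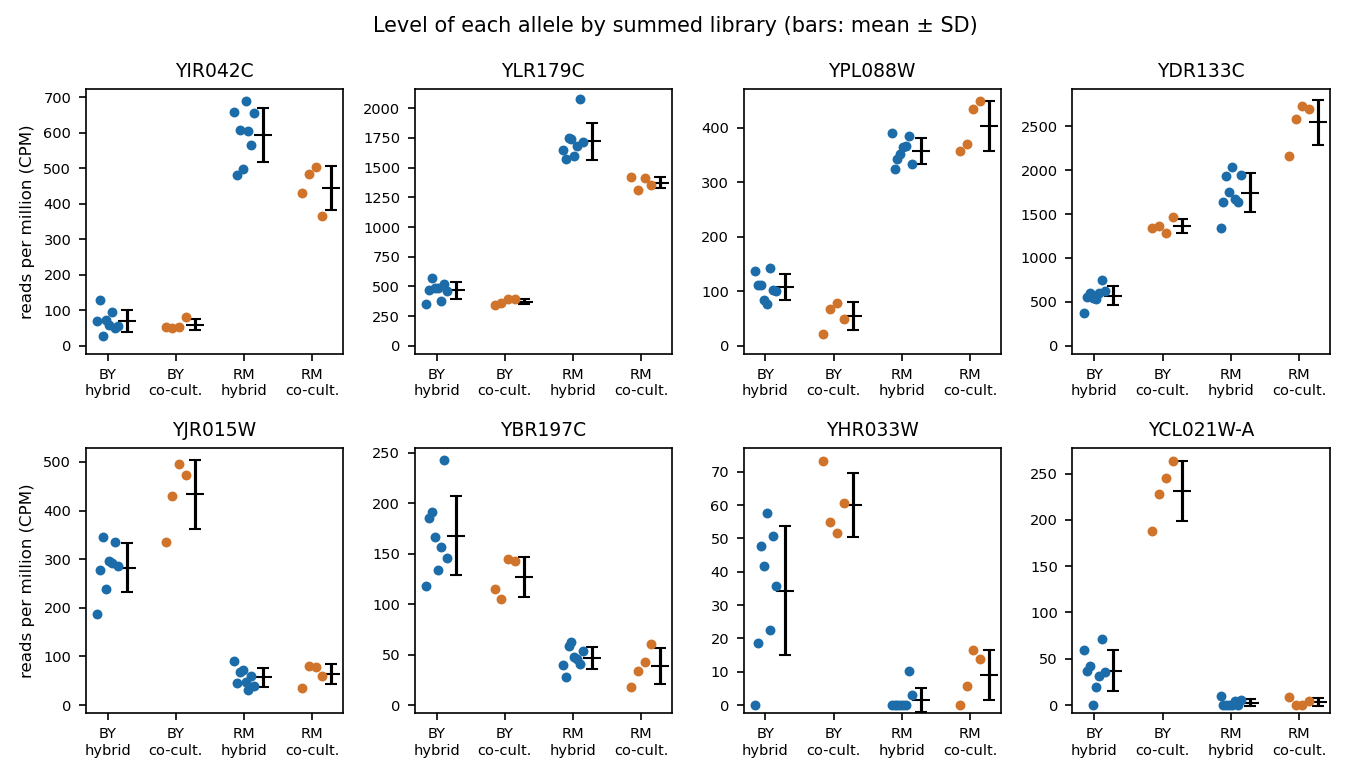
Scaled level in CPM of the BY and RM allele of each locus, with 1 point per summed library, hybrid in blue (n = 8) and co-culture in orange (n = 4), and black bars for mean ± SD. The BY allele of YCL021W-A and both alleles of YDR133C are higher in the co-culture, while for YPL088W the BY allele is higher in the hybrid (108 against 54.4 CPM).

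In the 4 loci whose ratio difference did not pass, the estimates for both alleles had the same sign, as they also did in YDR133C. The ratio difference is close to the BY change less the RM change, so these signs are not a result separate from it. YLR179C was higher in the hybrid by 0.25 on the log2 scale (SE 0.06, edgeR adjusted p = 0.000145), at 1083 ± 96.3 CPM against 913 ± 28.3 CPM. Its BY allele rose by 0.30 (SE 0.10, adjusted p = 0.00753) and its RM allele by 0.31 (SE 0.06, adjusted p = 5.2e-06), and the BY call ended when co-culture summed library 2 was left out (0.26, adjusted p = 0.0568). With that base composition trend removed, the summed change was 0.68, that of the BY allele 0.62 and that of the RM allele 0.77.

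YIR042C was higher in the hybrid by 0.27 (SE 0.08, edgeR adjusted p = 0.003), at 329 ± 32.1 CPM against 267 ± 27.4 CPM. Its RM allele rose by 0.37 (SE 0.09, adjusted p = 0.000251), whereas the BY allele, at 0.23 (SE 0.26), did not pass (adjusted p = 0.48). With the base composition trend removed, the summed change was 0.13 and no longer passed (adjusted p = 0.17), and the RM allele's was 0.22 (adjusted p = 0.0432).

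YJR015W was lower in the hybrid by a log2 change of -0.54 (SE 0.10, edgeR adjusted p = 4.1e-06), at 168 ± 22.0 CPM against 234 ± 43.6 CPM. Its BY allele fell by 0.65 (SE 0.11, adjusted p = 6e-08), and its RM allele, at -0.48 (SE 0.24), did not pass (adjusted p = 0.0844), though it did without co-culture summed library 1 (-0.56, adjusted p = 0.0449). The summed change was -0.21 with the base composition trend removed and then did not pass (adjusted p = 0.0698), while the BY allele's was -0.39 (adjusted p = 0.000809).

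YBR197C was higher in the hybrid by 0.41 (SE 0.15, edgeR adjusted p = 0.0151), at 106 ± 19.2 CPM against 79.2 ± 17.8 CPM, with overlapping groups. This call ended without co-culture summed library 2 (0.26, adjusted p = 0.184) and with the base composition trend removed (0.22, adjusted p = 0.211). Its BY allele, at 0.37 (SE 0.16, adjusted p = 0.0477), was just past the threshold and was not called under 10 of 19 alternatives. Across the 6 loci, the BY allele passed in 5 against 50.1% of all pairs, 25% each way, and the RM allele in 3 against 46.6%, 22.7% higher and 23.9% lower. Because the loci were picked on the reads of these alleles, both counts are a description only.

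**Figure D4:**
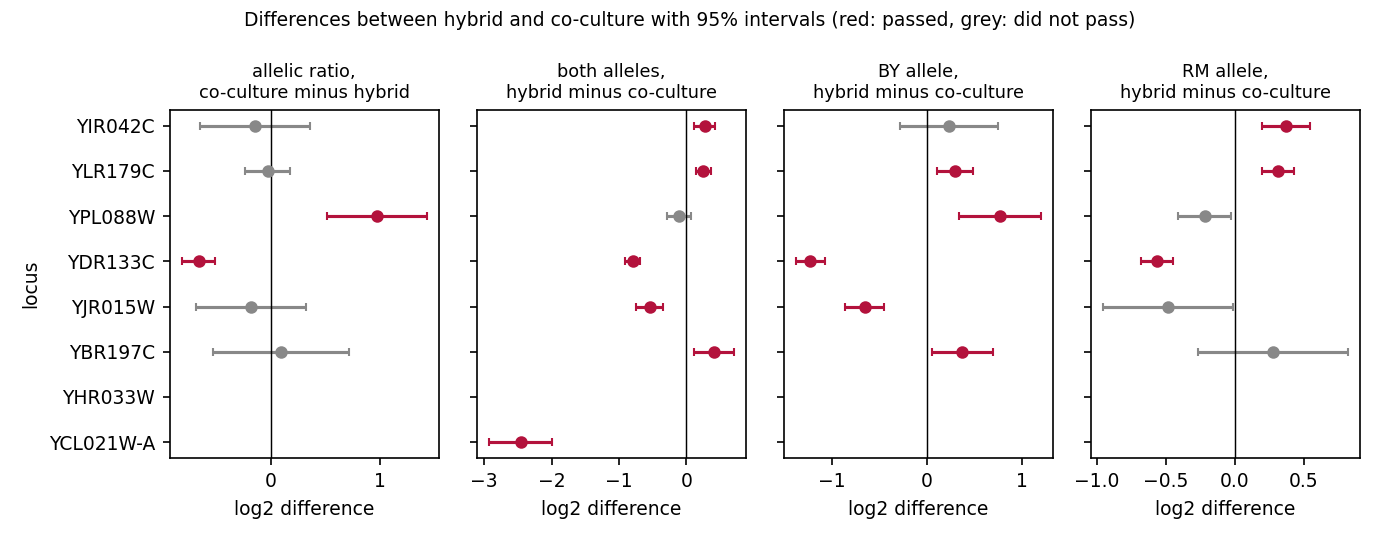
Log2 differences between hybrid and co-culture with 95% intervals for the allelic ratio, the level of both alleles, the BY allele and the RM allele; red points passed at an adjusted p under 0.05, grey ones did not, and rows without a point had too few reads. The ratio differs in YPL088W (0.97) and YDR133C (-0.66). The summed level of YCL021W-A (-2.46) is red but met the read minimum through the co-culture alone.

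Other genes of the Yrr1 and Yrm1 network were examined beside YLR179C and YPL088W. Of the 12 on the list 11 were in the files and 6 had enough reads. The allelic ratio was larger for RM in the co-culture than in the hybrid in 2 of these 6, SNQ2 and APD1, and the other 4 did not pass, with a median of 0.34 against -0.01 over all pairs. Of all pairs 20.9% passed, 11.2% above 0. SNQ2, an exporter of drugs, went from 417 BY and 359 RM reads in the hybrid to 292 and 534 in the co-culture, a log2 difference of 0.86 (SE 0.15, edgeR adjusted p = 2.6e-07). APD1 went from 505 and 512 reads to 485 and 818, a difference of 0.50 (SE 0.12, adjusted p = 0.000558). Neither gene had an RM excess that passed inside the hybrid. YPL088W was picked for its RM excess, so it cannot be compared with them in this. YLR179C, with the same annotated activators as YPL088W, gave -0.03. YRR1 itself gave 0.59 (SE 0.34) and did not pass (adjusted p = 0.218), and SNG1 (0.18), YOR1 (-0.39), an exporter gene, and FLR1 (-0.30), a transporter gene, did not pass either.

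Summed over alleles, all 6 of these genes differed between the groups, YRR1 higher in the hybrid and 5 lower, at a median of -0.41, where 60.4% of all genes differed. The YRR1 increase was 0.81 (SE 0.18, edgeR adjusted p = 3.6e-05), with 115 BY and 104 RM reads in the hybrid against 45 and 72 in the co-culture. Inside the hybrid, SNG1 (0.79, SE 0.30, adjusted p = 0.0361) and YOR1 (0.40, SE 0.14, adjusted p = 0.0178) were higher for RM, while SNQ2 stood at -0.22 (adjusted p = 0.137), APD1 at 0.02, YRR1 at -0.14 and FLR1 at 0.06, and none of these 4 passed. The remaining list members in the files had few reads. BY and RM reads in the hybrid were 45 and 54 for YRM1, 2 and 7 for AZR1, and 2 and 6 for CIS1. They were 40 and 28 for YLL056C and 48 and 42 for YGR035C. In the co-culture they were 36 and 45 for YRM1, 4 and 5 for AZR1, and 9 and 1 for CIS1. There YLL056C had 35 and 29, and YGR035C had 29 and 26.

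Relatives of the loci were looked at next. Of 13 listed, 6 were in the files and 3 had enough reads. PRO1, the paralog of YHR033W, had 152 BY and 138 RM reads in the hybrid, a log2 ratio of -0.14 (SE 0.17, edgeR adjusted p = 0.637), and stood at -0.71 (SE 0.20, adjusted p = 0.00133) in the co-culture. SNG1, the paralog of YJR015W, was higher for RM, opposite to YJR015W, with 38 BY and 66 RM reads in the hybrid and 43 and 99 in the co-culture. CCW12, a cell wall mannoprotein gene listed with YDR133C for the systematic number of its relative CCW22, YDR134C, had a ratio of 0.29 (SE 0.02, adjusted p = 4.6e-29) in the hybrid, against 0.73 (SE 0.02) in the co-culture, with RM higher as in YDR133C but with the larger ratio in the co-culture. TFS1, the relative and neighbour of YLR179C, had 14 BY and 31 RM reads in the hybrid and 21 and 25 in the co-culture, and YPL077C, the paralog of YBR197C, had 8 and 6 against 7 and 3, both under the read minimum. AAD10, an aryl alcohol dehydrogenase gene, had at most 6 reads per allele and group.

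The nearest genes of the files on either side of the loci were not chosen for their ratios. Of 10 such genes with enough reads, 5 passed inside the hybrid, 3 in the direction of their neighbour and 2 in the opposite one, against 20.6% of all pairs. Their absolute log2 ratios were at most 0.61 in the hybrid, where GTT1 was highest, against 1.36 for GTT1 in the co-culture. SAM1, an S-adenosylmethionine synthetase gene transcribed away from YLR179C, was higher for RM by 0.54 (SE 0.03, edgeR adjusted p = 1.3e-48). RLM1, a transcription factor gene beside YPL088W, was also higher for RM (0.37, SE 0.11, adjusted p = 0.00671), and ILV3, a branched-chain amino acid synthesis gene beside YJR015W, was higher for BY (-0.17, SE 0.06, adjusted p = 0.0185). GTT1, a glutathione transferase gene and the nearest gene of the files to YIR042C, was higher for BY (-0.61, SE 0.22, adjusted p = 0.0295). ERC1, a multidrug transporter gene beside YHR033W, was higher for RM (0.55, SE 0.12, adjusted p = 3.1e-05). None of the 7 annotated loci overlapped another annotated gene. For YDR133C, which had no entry, neighbours and overlap could not be examined.

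Other loci without a standard name had a share of calls near that of named genes but a larger median absolute ratio in the co-culture, a description with no test. Apart from the 8 loci, 438 gene pairs had no standard name or no RefSeq entry, and 128 of them had enough reads. Read depth was not compared between these and the named pairs. Of the 128, 18% passed in the hybrid, 43.8% in the co-culture and 17.2% in the difference, against 20.5%, 39.9% and 21% of 2527 named pairs. The median absolute log2 ratio of the 128 in the hybrid was 0.20, against 0.17 in named pairs, and 4 of the 128 exceeded a 2-fold ratio, against 44 of the 2527. In the co-culture the median was 0.38 against 0.25, and 13 of the 128 exceeded a 2-fold ratio, against 113 of the 2527. The 8 loci, picked for large ratios, are not in these counts.

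The gene pairs with the most similar hybrid and co-culture ratios, by the distance between both log2 ratios over the 8 and 4 summed libraries, were the following. YPL088W was nearest to SPO21, a spore formation gene, at a distance of 0.16 (ratios 1.79 and 2.54), and YDR133C to the permease gene AGP3 at 0.25 (1.86 and 0.95) and the transfer RNA editing gene TAD2 at 0.41. YBR197C was nearest to GPB2, which encodes a Gpa2-binding signalling protein, at 0.30 and to the oligosaccharyltransferase gene STT3 at 0.45. YLR179C was nearest to YER187W at 0.46 and to the phospholipase gene PLB2 at 0.61, and YER187W was also second to YPL088W (0.50) and to YIR042C (1.36). YIR042C was nearest to DEF1, a gene for RNA polymerase degradation, at 0.62, and YJR015W to the membrane protein gene MRH1 at 1.00 and to YBR197C at 1.22. SPO21, AGP3, DEF1 and YER187W had between 108 and 180 reads per group, so their own ratios are imprecise.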

How the data were processed

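The deposited files give, per the file headers, raw read counts over the sites that differ between BY and RM, for each allele of 4442 gene pairs in 24 libraries. The authors' aligner is not given in the sources used here, nor are their build and filters. Selection of RNA and reverse transcription used oligo-dT, per the labels' protocols. Of the gene pairs, 4325 matched a RefSeq R64 locus tag. The members, lists and tests were chosen with earlier results of these data known.

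Libraries of a group whose summed counts differed by no more than noise (chi-square on genes with 20 or more reads, p of 0.05 or more, where other pairs had p under 0.001) were joined by complete linkage. Allelic ratios came from 1 edgeR 4.0.16 quasi-likelihood fit (R 4.3.3) of every allele column, blocked on summed library and scaled by TMM, for pairs with at least 100 reads in each group. Total counts (10 or more reads per library on average in a group) and each allele's counts were compared between groups likewise. P-values are Benjamini-Hochberg adjusted, with a threshold of 0.05. SEs come from the fitted covariance, and 95% intervals are normal. DESeq2 1.42.0 served as an alternative. The fits were tested on simulated data. Shares and ratios of reads carry exact intervals. Alternatives were no TMM, other read minimums, single libraries with and without a replicate block, each summed library left out, removal of the trend on A content, and, added after seeing the data, libraries joined on each allele's reads. With that trend removed, p-values came from a normal distribution of the change over its SE, not from the edgeR F test. Named genes are the 8 loci, the fixed lists, the nearest genes in the files, the 2 pairs nearest in ratio, and the markers. Sequences are from RefSeq R64.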

Additional observations from a re-analysis of the deposited data

Results flagged for a closer look

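The difference in allelic ratio between co-culture and hybrid passed its test in 2 loci, by 0.97 on the log2 scale in YPL088W and by -0.66 in YDR133C.

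In YIR042C, 1 of the 4 summed co-culture libraries, number 4, had an RM share of 84.0%, below the 90.6, 91.9 and 91.9% of the other 3, on 15 BY and 79 RM reads. Without it the co-culture minus hybrid difference was 0.06 instead of -0.14 and passed in neither case. In YDR133C, summed hybrid library 1 had a level of 844.8 CPM, below the 1081 to 1270 CPM of the other 7. Without it the hybrid minus co-culture change was -0.76 instead of -0.80. Of 32 sets of values examined, 2 had such a distant value, and chance gives about 1 in 20.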

How the results depend on the processing

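The calls for YPL088W (0.88 to 1.11 over its alternatives) and YDR133C (-0.73 to -0.59) in the ratio difference held under all 19 alternatives, as did those for the summed level of YDR133C and YLR179C. DESeq2 made fewer calls over all pairs, with 347 in the hybrid, 609 in the co-culture and 288 in the difference, against 548, 1071 and 555. Differences near 0 changed sign without passing in any case: YIR042C without hybrid replicate 3 (0.024) or co-culture replicate 4 (0.060), YLR179C without the read minimum (0.038) or without hybrid replicate 1 (0.017), 6 (0.022) or 7 (0.0064) or co-culture replicate 3 (0.0013), and YBR197C without co-culture replicate 4 (-0.024). Over all leave-outs these ranged from -0.29 to 0.060, -0.062 to 0.022 and -0.024 to 0.20. Replicates here are summed libraries. Of 474 alternative values of the loci, 446 kept direction and call, 15 lost and 5 gained a call. The 446 include all 19 of the summed level of YCL021W-A, which is given as a description with no test. Without TMM the median over all genes moved from 0.02 to 0.12 for the summed level and from 0.02 to 0.16 for the RM allele. Calls higher and lower in the hybrid were then 1066 and 683 instead of 825 and 862, and for the RM allele 875 and 476 instead of 605 and 635. For the ratio difference they were 230 above and 357 below 0, with DESeq2 189 and 99, instead of 299 and 256. The change in level followed the A share of the coding sequence over all genes; removing that trend is the base composition alternative, and for YDR133C, which has no annotated sequence, only the median was removed. Library numbers do not pair the groups (same-number correlations -0.037 to 0.058 over 12 pairs, 1 hybrid library closest to its own number). With the replicate block over 24 libraries 548 pairs passed in the ratio difference against 553 without it, and no call changed among the 6 loci of the allelic fits. Joining libraries on each allele's reads, chosen after seeing the data, gave 546. Depth left YHR033W and YCL021W-A out of the allelic fits.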
